A study of Rattus norvegicus with 29 samples.

Results

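The comparison described here set 3 libraries from rat kidney cells, renal proximal tubule epithelial cells in primary culture, exposed to TCDD for 24 h against 3 control libraries of the same cells at 24 h. These 6 libraries were chosen by treatment and time label from the 29 libraries of the study, which also holds acetaminophen, gentamicin and trichloroethylene and an earlier time of 6 h for all of them. TCDD is the labels' 2,3,7,8-Tetrachlorodibenzodioxin. The sources used here do not give the dose, the vehicle, the strain, age and number of rats or the handling of the control cultures. Whether the replicates are separate animals or cultures is not stated in the labels. The p-values reflect the spread between replicate libraries, estimated over all 29 libraries of the study, which may be technical.

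Proximal tubule cells line the first segment of the nephron, where they reabsorb most of what is filtered and take up and metabolise drugs and toxicants. TCDD is a persistent dioxin that binds the aryl hydrocarbon receptor. The bound receptor moves to the nucleus, pairs with its partner ARNT and activates genes of xenobiotic metabolism, of which the cytochrome P450 genes of the CYP1 family are the best known. The deposited tables name transcripts by Ensembl identifier, and the gene table used here paired 0 of them with a gene. The members of the receptor's gene battery and the markers of the tubule cell were therefore not looked up, and no role is given to any transcript. The results below are by size of change, abundance and transcript length, with 4 transcripts printed by identifier.

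The TCDD libraries held 10017599, 9539090 and 9472749 estimated counts (replicates 1 to 3), and the control libraries 8513263, 9467749 and 9515599. A transcript with at least 1 count was found for 17837, 17468 and 17856 of the 28420 listed transcripts in TCDD libraries, against 17095, 17090 and 17188 in control libraries. The TCDD libraries thus detected more transcripts than any control library, although their depth overlapped. An exact two-sided permutation test of that difference gave p = 0.1, the smallest value that 3 libraries against 3 can give. The difference was not particular to TCDD. At 24 h, 17589 to 17798 transcripts were detected with acetaminophen, 17824 to 18090 with gentamicin and 17321 to 17444 with trichloroethylene. In carrying fewer counts on long transcripts, all 3 TCDD libraries stood apart from the other 26 libraries, TCDD replicate 2 most of all. The values are given with the length classes, and without that library 10267 transcripts were called, against 10701 with it.

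Most of the transcripts that these cells express differed after TCDD. Of 15990 transcripts tested, 10701 changed at an adjusted p under 0.05 (66.9%; edgeR's quasi-likelihood test with Benjamini-Hochberg adjustment), with 5423 that rose (33.9% of all tested) and 5278 that fell (33%). In 9968 of the called transcripts, all 3 TCDD libraries lay outside the range of the 3 controls on TMM-scaled CPM (62.3% of all tested). Called or not, 10686 transcripts had groups apart in this way (66.8% of all tested). A typical change was about 2-fold: the medians on the log2 scale were 0.97 for rises and -1.03 for falls, with a median SE of 0.16 per transcript. Since RNA was measured in bulk, fewer cells of a type and less RNA per cell cannot be told apart.

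The changes thinned out quickly with size. More than 4-fold rises numbered 812 and falls of that size 803. Beyond 8-fold there were 333 rises (2.08% of all tested) and 228 falls (1.43%), and beyond 32-fold 40 rises and 13 falls. Where a group had no count at all, these sizes are lower bounds that set it at 3 counts in each library. A group with any count kept its estimate, so some sizes rest on very few counts. The largest rise, a log2 change of 7.91, had 0, 0 and 1 estimated counts in controls. With TCDD it had 112, 97.7 and 112. Among transcripts whose mean was over 100 TPM in the higher group (a level scaled to transcript length and library total), 80.9% were called, with 851 rises and 608 falls. Under 1 TPM the share was 24.6%, with a median SE of 0.82 on the log2 scale against 0.119 over 100 TPM. Changes beyond 8-fold made up 3.1% of transcripts over 100 TPM, 2.22% from 10 to 100 TPM, 5.66% from 1 to 10 TPM and 4.35% under 1 TPM.

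**Figure D1:**
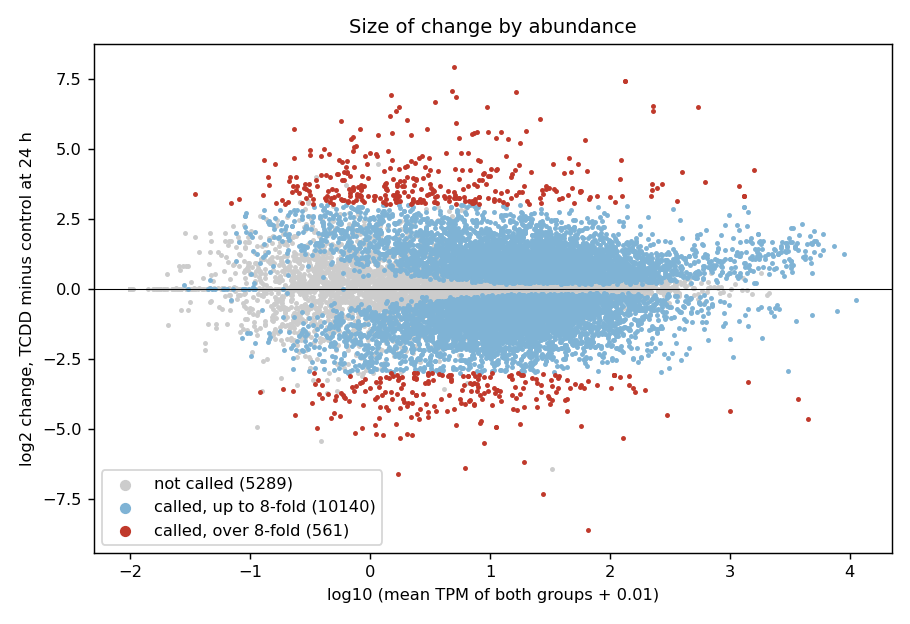
Each point is 1 of 15990 tested transcripts, with its log2 change (TCDD minus control at 24 h, bounded where a group had no count) on the vertical axis and log10 of its mean TPM plus 0.01 on the horizontal axis. Grey points were not called (5289), and the 561 red points were called and changed beyond 8-fold, at all levels of abundance.

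Summed over transcripts, the called rises took up most of the transcript pool of treated cells. The 5423 rises held 74.2%, 76.2% and 72% of all TPM in TCDD libraries, against 44.8%, 46% and 50.2% in control libraries. The 5278 falls held 13.7%, 12% and 15.3% in TCDD libraries and 38.8%, 37.6% and 33.1% in control libraries. The groups did not overlap for either set, as the choice of members by this same contrast requires. The 333 rises beyond 8-fold were a small part of the pool even when raised, at 2.47%, 2.12% and 2.67% in TCDD libraries and 0.269%, 0.258% and 0.252% in controls. The 228 falls of that size held 0.113%, 0.117% and 0.142% in TCDD libraries, against 3.53%, 2.82% and 2.13% in controls.

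Because these sums lie on the TPM scale, the balance of directions differs there. With limma on log2(TPM + 1), 31.8% of calls were rises, against 50.7% on TMM-scaled counts. On that scale the median change of all tested transcripts stood at -0.27, against 0.02 on TMM-scaled counts. A transcript that did not move relative to the median one therefore counts as lower on the TPM scale.

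The 4 printed transcripts are, in each direction, the largest change among transcripts under 2000 bases and the largest among longer ones. They were drawn from 4165 called transcripts with at least 3 counts in all 6 libraries, at least 10 TPM in the higher group, and groups that did not overlap in TPM. The same direction and call were also required in all 19 alternative settings. Their sizes are the extremes of that list and are given as a description. Their p-values come from the fit to all 29 libraries. With only the 6 compared libraries in the fit, 9613 transcripts were called. The edgeR adjusted p was then 1.05e-07 for ENSRNOT00000049667 and 1.94e-06 for ENSRNOT00000008302. For ENSRNOT00000003418 it was 1.72e-06, and for ENSRNOT00000008416 4.31e-07.

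The short rise was ENSRNOT00000049667, a transcript of 1926 bases. Its level was 286, 189 and 325 TPM in TCDD libraries, against 2.04, 1.9 and 2.1 TPM in control libraries. The lowest TCDD library was far above the highest control, although the TCDD libraries differed more among themselves, with means of 267 ± 70.4 TPM for TCDD and 2.01 ± 0.1 TPM for control (SD, n = 3 each). The log2 change was 7.4 ± 0.22 (SE; edgeR adjusted p = 1.5e-18), a 168-fold rise. At 6 h the same transcript stood at 2.53, 3.21 and 2.74 TPM with TCDD and at 3.2 and 2.55 TPM in the 2 controls of that time, so the groups overlapped (log2 change -0.16 ± 0.3, edgeR adjusted p = 0.903).

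The long rise was ENSRNOT00000008302, of 5645 bases. It had 20.6, 10.6 and 25 TPM in TCDD libraries and 0.408, 0.274 and 0.115 TPM in control libraries, where it rested on 15, 11 and 5 estimated counts. Its log2 change was 6.48 ± 0.36 (SE; edgeR adjusted p = 4.23e-13), an 89.4-fold rise. On log2(TPM + 1), which compresses low levels, limma gave 3.89. Relative to the median change of transcripts of 4000 bases and over, its change was 7.09. The level in TCDD replicate 2 was the lowest of its group for both rises.

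The short fall was ENSRNOT00000003418, of only 366 bases. It had 3.5, 2.71 and 5.7 TPM in TCDD libraries, against 326, 227 and 200 TPM in control libraries. At this length the effective length, the number of positions at which a fragment can start, differed between the groups: 149, 141 and 146 bases in TCDD libraries and 113, 117 and 126 bases in controls. The estimated counts fell as well, with 5, 4 and 7 in TCDD libraries and 252, 199 and 204 in control libraries. The log2 change was -5.32 ± 0.3 (SE; edgeR adjusted p = 9.76e-14), or 39.9-fold lower, on counts that are not scaled to effective length. At 6 h it had 151, 135 and 167 TPM with TCDD and 83.3 and 106 TPM in controls, so the TCDD libraries lay above both controls (log2 change 0.55 ± 0.23, edgeR adjusted p = 0.696).

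The long fall was ENSRNOT00000008416, of 2688 bases. Its level was 2.9, 2.53 and 4.04 TPM with TCDD and 92.5, 86.2 and 75.4 TPM in controls. Both groups were tight, and the highest TCDD library lay far below the lowest control. The log2 change was -4.38 ± 0.18 (SE; edgeR adjusted p = 4.61e-16), 20.8-fold lower. At 6 h it stood at 70.3, 66.8 and 83.4 TPM with TCDD and 61.8 and 65.3 TPM in controls, a log2 change of 0.06 ± 0.16 (edgeR adjusted p = 0.936).

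**Figure D2:**
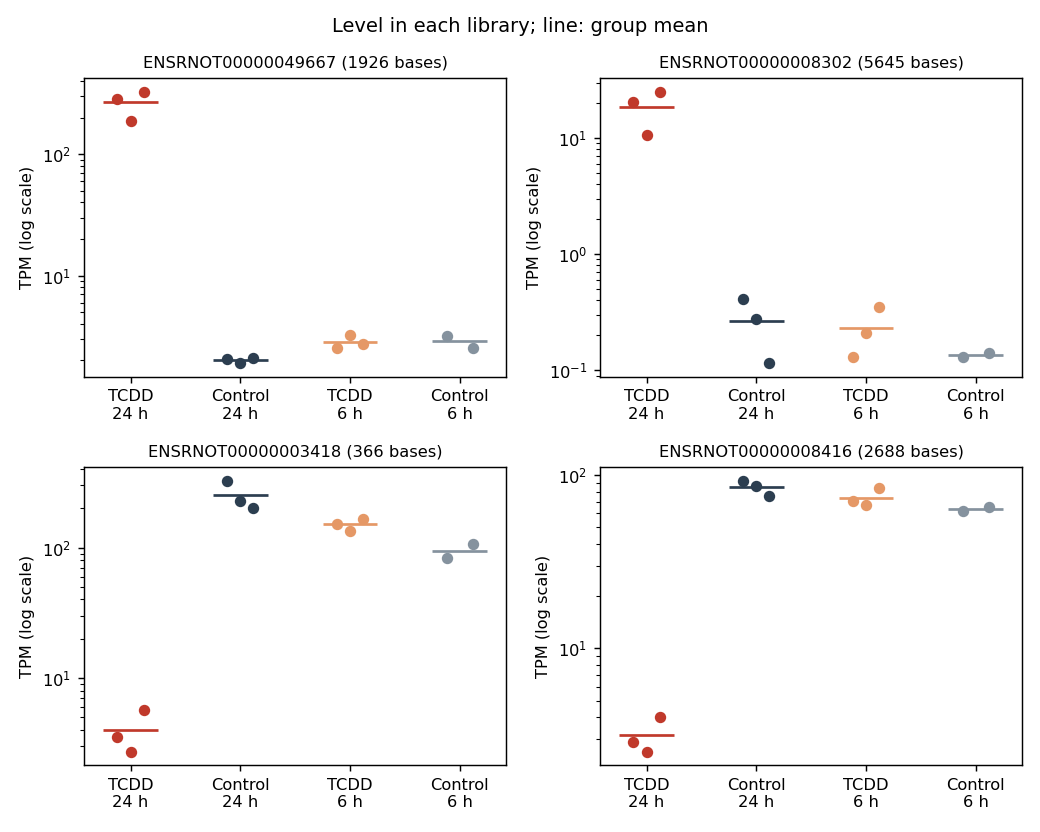
TPM on a log scale in each library for the 4 printed transcripts, with TCDD and control at 24 h and, beside them, at 6 h; horizontal lines are group means. At 24 h the TCDD libraries lie apart from the controls in all 4 panels, while at 6 h the TCDD libraries do not show these changes, and those of ENSRNOT00000003418 lie above the 2 controls.

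Transcript length went with the direction of change. In the longest class, 4000 bases and over, 1578 of 2235 tested transcripts were called (70.6%), and 303 of them rose while 1275 fell. Rises were thus 19.2% of the calls, and the median log2 change of the class was -0.61. From 2000 to under 4000 bases, 3946 were called and 49.3% of them rose, with a median of 0. From 1000 to under 2000 bases the balance was the other way, with 2261 rises and 1428 falls (median 0.25), and from 500 to under 1000 bases 731 rose and 391 fell (median 0.3). Under 500 bases, 181 rose and 185 fell, with a median of 0.02. The excess of rises in the middle classes depended on the scale: with limma on log2(TPM + 1), rises were 41.6% of the calls from 1000 to under 2000 bases, against 61.3% on TMM-scaled counts, and 42.3% from 500 to under 1000 bases, against 65.2%. With TMM factors within length classes the shares were 51% and 52.6%. The share of transcripts called was 55.7% in that shortest class and between 60.7% and 70.6% in the others.

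In 20 bins of equal size by length, the share of transcripts that fell reached 63.9% in the longest bin, where the median length was 6796 bases and 8.62% rose. In the bin with a median length of 875 bases, 41.8% rose and 20.2% fell. At 6 h the longest class had a median log2 change of 0.15 for TCDD against control. The change of the TCDD effect between the times, tested by an interaction contrast in edgeR, passed for 56% of all tested transcripts. It was positive in 11.9% of the 1404 transcripts of 4000 bases and over that passed, with a median difference of -0.78 over the class.

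**Figure D3:**
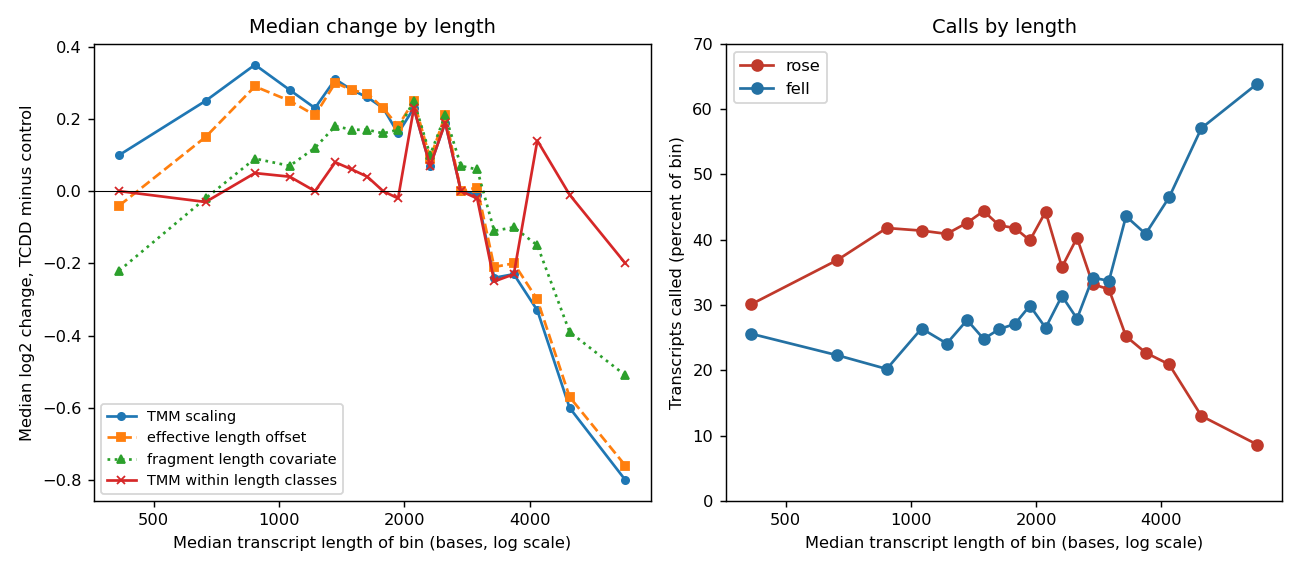
Left, the median log2 change (TCDD minus control at 24 h) of 20 length bins of 799 or 800 transcripts, under 4 treatments of length; right, the percent of each bin that rose or fell with TMM scaling. With the first 3 treatments the longest bins lie below 0. TMM factors computed within length classes bring the middle of each class near 0, as they are built to do. A trend inside the classes remained with them. The bin medians went from 0.23 at 2108 bases to -0.25 at 3289 bases, and from 0.14 at 4175 bases to -0.2 in the longest bin.

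The libraries themselves show the same pattern without any call. Transcripts of 4000 bases and over took 13.5%, 10.5% and 15.1% of the counts in TCDD libraries, against 24.5%, 23.9% and 21.9% in control libraries. The TCDD values lay below every one of the other 26 libraries of the study, which ran from 17.5% to 24.5%. An exact two-sided permutation test of TCDD against control gave p = 0.1, the smallest possible with 3 libraries each. Transcripts under 1000 bases held 18.2% ± 3.19 of counts with TCDD and 11.2% ± 1.17 in controls (SD, n = 3 each), and again the TCDD libraries lay above all 26 others, whose highest value was 14.9%. TCDD replicate 2 was the most extreme library on both measures. Averaged over TPM, transcript length was 1276, 1142 and 1360 bases in TCDD libraries and 1520, 1533 and 1441 bases in controls.

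Fragment length, taken as the bases between length and effective length, also differed. It was 230, 238 and 234 bases in TCDD libraries, against 289, 277 and 270 bases in controls, with no overlap. Fragment length and the share of counts on the longest class moved together within some groups and not within others. In acetaminophen libraries at 24 h, fragments of 233, 254 and 275 bases went with shares of 18.7%, 20.4% and 22.2%. In TCDD libraries at 6 h, fragments of 250, 254 and 278 bases went with 21.4%, 22% and 23.1%, and in controls at 24 h, 270, 277 and 289 bases went with 21.9%, 23.9% and 24.5%. The order was also kept with gentamicin at 24 h and in the controls at 6 h. In the TCDD libraries at 24 h, replicate 2 had the longest fragments and the lowest share. In acetaminophen libraries at 6 h, fragments of 247, 248 and 252 bases went with 17.8%, 18.3% and 17.5%. In trichloroethylene libraries at 24 h, 248, 258 and 259 bases went with 21.3%, 20.1% and 21.4%. Nor was the order kept with gentamicin or trichloroethylene at 6 h. The part of fragment length in the length pattern was not tested beyond the offset and the covariate described below. Shorter fragments raise the effective length of every transcript, by a median of 20.8% under 500 bases, 9.1% from 500 to under 1000 bases and 0.925% at 4000 bases and over. The labels say that RNA integrity was assessed, and its values are not used here; the part of RNA quality in the length pattern was not tested.

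**Figure D4:**
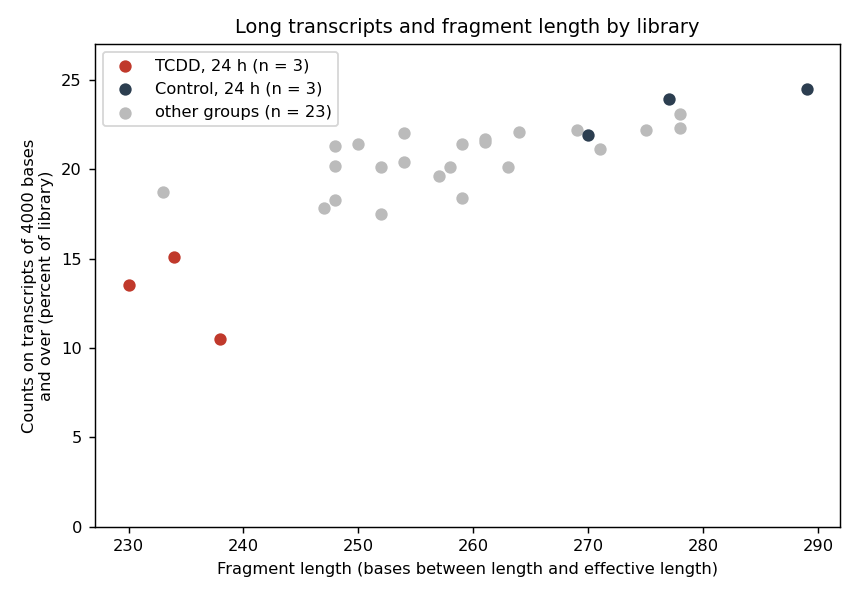
Each point is 1 library, with fragment length in bases on the horizontal axis and the percent of its counts on transcripts of 4000 bases and over on the vertical axis, for TCDD at 24 h, control at 24 h and the 23 other libraries. The 3 TCDD libraries, from 10.5% to 15.1%, lie below all others, including 1 acetaminophen library with fragments of 233 bases, which is the lowest of its own group.

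Length was then taken into account in several ways. With each transcript's effective length as an offset, 10676 transcripts were called and 20.4% of the calls in the longest class were rises, close to the 19.2% without it. Under 500 bases the median moved to -0.14, against 0.02. With library fragment length as a covariate, 7729 transcripts were called, and rises were 23.9% of the calls in the longest class, 47.3% from 500 to under 1000 bases and 30.3% under 500 bases. The slope of this covariate rests on differences between libraries of the same group, over all 29 libraries. Since the TCDD and control fragments do not overlap, fragment length and treatment are separated only through that slope. With TMM factors computed separately within each of the 5 length classes, which sets the middle of every class near 0, 10620 transcripts were called and rises were 49.5% of the calls in the longest class.

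Scaling within classes left most calls as they were. Of the 10701 calls, 9609 kept their direction and call. A further 78, all of 4000 bases and over, were called in the opposite direction, and 427 calls in that class were lost. From 1000 to under 2000 bases 416 calls were lost, and from 500 to under 1000 bases 140. The 4 printed transcripts kept their direction and call, with ENSRNOT00000008302 at 7.06 on the log2 scale. For transcripts of 4000 bases and over with modest changes, the direction of a call thus depends on whether the class or the whole library sets the scale.

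The most changed transcripts came from all length classes. Of the 333 rises beyond 8-fold, 19 lay in the class under 500 bases, 46 from 500 to under 1000, 129 from 1000 to under 2000, 113 from 2000 to under 4000 and 26 at 4000 bases and over. The 228 falls were split as 20, 35, 85, 58 and 30 over the same classes. As a share of each class the changes beyond 8-fold were 5.94% in the shortest class, 4.38%, 3.97% and 2.92% in the next ones and 2.51% in the longest. With the class median subtracted, 39 rises and 14 falls of the longest class lay beyond 8-fold.

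With TMM factors within classes, 329 of the 333 rises and 225 of the 228 falls kept their direction and call, and 300 and 212 of them stayed beyond 8-fold. The effective length offset kept 333 and 227. With the fragment length covariate, 233 rises and 189 falls were still called, beside 3427 of all 5423 rises and 3585 of all 5278 falls. When only the 6 libraries compared entered the fit, 331 and 228 were kept. All 19 alternatives together kept 118 rises and 107 falls, beside 2160 of all 5423 rises and 2861 of all 5278 falls. Among these alternatives, a filter at 10 CPM in 3 libraries removes scarce transcripts outright: 245 of the 561 were still called under it.

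Some transcripts switched between no count and many. In 31 cases no control library had a count and every TCDD library had at least 10. All 31 were called, beside 66.9% of all tested transcripts, and their choice by these same counts makes a call likely. Their mean levels in TCDD libraries ran from 0.641 to 39.6 TPM and their lengths from 312 to 5497 bases, 6 of them under 1000 bases. The opposite held for 22 transcripts, which had no count in any TCDD library and at least 10 in every control. Their mean levels in controls ran from 0.435 to 130 TPM, and all 22 were called, which their choice makes likely in the same way. Of the first set, 21 had a count in a TCDD library at 6 h and 18 had none in the 6 h controls. Of the second set, 21 had a count in a TCDD library at 6 h and 2 had none in the 6 h controls. A median of 1.85 TPM in the first set and 3.51 TPM in the second shows that these were mostly scarce transcripts.

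The transcripts changed beyond 8-fold at 24 h had not moved together at 6 h. The 333 later rises had a median log2 change of 0 at 6 h (middle 50% from -0.32 to 0.36), and the 228 later falls one of 0.16 (from -0.07 to 0.43), beside 0.02 for all tested transcripts. A transcript with no count in either group at 6 h enters these medians as 0. One with no count in a single group enters with a bound that cannot cross 0. Part of the median of 0 may come from this rule. No transcript of the 15990 was called at 6 h by edgeR (1124 at an unadjusted p under 0.05), 8 were called by DESeq2 and 0 by limma on log2(TPM + 1). Of the 561 transcripts, 41 had an unadjusted p under 0.05 at 6 h by edgeR and 1 was called by DESeq2. The difference between the effects at 24 h and 6 h was also tested with edgeR. It passed in the direction of the later change for 229 of the 333 rises and 217 of the 228 falls. Among all 5423 rises it passed for 4223, a larger share than in the 333. Among all 5278 falls it passed for 4449, a smaller share than in the 228. Of all tested transcripts, 27.2% had a positive difference that passed and 28.8% a negative one. The transcripts were chosen by the 24 h contrast that enters this difference, so nothing is read from these counts beyond their size. The 2 controls at 6 h limit the precision of that time.

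**Figure D5:**
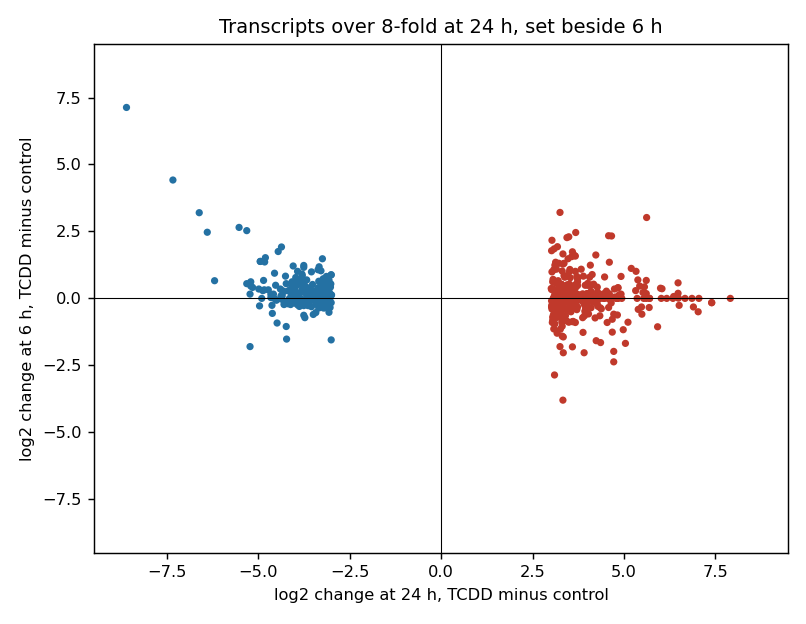
Each of the 561 points is a transcript called and changed beyond 8-fold at 24 h, with its log2 change (TCDD minus control, bounded where a group had no count) at 24 h on the horizontal axis and at 6 h on the vertical axis. Most points lie near 0 at 6 h, with a range from -3.8 to 7.13.

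The large changes were also compared directly with the other compounds at 24 h, in contrasts that do not use the controls. Of the 333 rises, 249 were also higher with TCDD than with acetaminophen (34.2% of all tested transcripts were), 211 higher than with gentamicin (33.6%) and 257 higher than with trichloroethylene (29.6%). All 3 held for 163 rises (13.2% of all tested transcripts rose against control and lay above each other compound). Of the 228 falls, 184 were lower than with acetaminophen, 173 lower than with gentamicin and 200 lower than with trichloroethylene, and 147 were lower than with all 3. The corresponding shares of all tested transcripts were 34.5%, 34.6%, 29.6% and 14%. Of all 5423 rises, 3588, 3487 and 3835 were higher than with acetaminophen, gentamicin and trichloroethylene, and 2108 higher than with all 3. Of all 5278 falls, 3555, 3440 and 3831 were lower, and 2235 lower than with all 3. Against gentamicin the large rises were thus no more often higher than rises of any size, while the other shares were larger among the large changes. The TCDD libraries enter both the choice of these transcripts and these contrasts.

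The printed transcripts differ in this respect. ENSRNOT00000049667 averaged 267 ± 70.4 TPM with TCDD and 204 ± 5.62 TPM with gentamicin (SD, n = 3 each), a small log2 difference of 0.61 ± 0.14 (SE; edgeR adjusted p = 0.000574), while it was 2.26 ± 0.455 TPM with acetaminophen and 3.35 ± 0.0572 TPM with trichloroethylene. ENSRNOT00000008302 was lower with TCDD than with gentamicin, at 18.7 ± 7.39 TPM and 37.7 ± 7.78 TPM (log2 difference -0.81 ± 0.22, edgeR adjusted p = 0.00271). It stood at 6.07 ± 1.16 TPM with acetaminophen and 1.56 ± 0.739 TPM with trichloroethylene, against 0.266 ± 0.147 TPM in controls. Both falls went further with TCDD than with any other compound at 24 h.

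ENSRNOT00000003418 averaged 3.97 ± 1.55 TPM with TCDD, 23.6 ± 6.29 with acetaminophen, 27.7 ± 9.48 with gentamicin and 68.4 ± 13.4 with trichloroethylene, against 251 ± 66.5 TPM in controls. The log2 difference from acetaminophen, its nearest neighbour, was -1.88 ± 0.36 (SE; edgeR adjusted p = 5.94e-05). ENSRNOT00000008416 averaged 3.15 ± 0.786 TPM with TCDD, 12.8 ± 3.49 with gentamicin, 17.3 ± 4.19 with trichloroethylene and 34.3 ± 7.03 with acetaminophen, against 84.7 ± 8.66 TPM in controls. Its log2 difference from gentamicin was -1.79 ± 0.19 (edgeR adjusted p = 6.93e-09).

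The length pattern was also present against the other compounds. Among calls of 4000 bases and over, 27.4% were higher with TCDD than with acetaminophen, 23.9% higher than with gentamicin and 19.8% higher than with trichloroethylene. The median log2 differences of that class were -0.5, -0.6 and -0.44. From 1000 to under 2000 bases the shares were 58.7%, 58.7% and 59.4%. With TMM factors over the whole library, long transcripts were thus mostly lower with TCDD than in each other group at 24 h.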

How the data were processed

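RNA from 29 libraries was quantified by the authors with kallisto 0.43, per the submitters' processing notes. The deposited expected counts (estimated counts, not all whole) are the authors' and are not normalized; their deposited TPM values scale these to effective length and library total. The sources used here do not give the transcript set, strand setting or trimming, and reads shared by similar transcripts were divided by the authors' tool. RNA was extracted with TRIzol, per the labels' protocols.

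Estimated counts were rounded. filterByExpr at a minimum of 10 kept 15990 of 28420 transcripts and 99.95% of counts. With TMM factors, edgeR 4.0.16 (R 4.3.3) fitted 1 robust quasi-likelihood model with a coefficient for each group to all 29 libraries (19 residual degrees of freedom). A call is a Benjamini-Hochberg adjusted p under 0.05 over all tested transcripts. The SE is the log2 change divided by the square root of F. Fragment length was the median over transcripts of at least 1000 bases.

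In simulated counts for this comparison (200 of 15661 transcripts changed, 3 draws), the share recovered was 55.3% at 1.5-fold, 77.3% at 2-fold, 90% at 4-fold and 96.7% at 8-fold, and 3.23% of calls were false. The changed transcripts were drawn from those above a minimum mean CPM, so recovery among the scarcest was not simulated. The other simulated transcripts had equal means in both groups, with no shift by length. The real contrast called 66.9% of transcripts and had a trend by length, so these rates may not carry over to it. Replicates were not duplicates: chi-square per degree of freedom ran from 4.55 to 28.3. Alternatives used DESeq2 1.42.0, limma 3.58.1 and other filters, scales, blocks and length treatments. The 4 printed transcripts follow a rule by length, fold and stability. Members, lists and tests were chosen with earlier results of these data known; gene lists prepared for named genes were not used here. No batch or sequencing date is in the labels.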

Additional observations from a re-analysis of the deposited data

Results flagged for a closer look

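The effect of TCDD differed between the times by the interaction contrast, (TCDD minus control at 24 h) minus (TCDD minus control at 6 h). With edgeR's quasi-likelihood test it passed for 8959 of 15990 transcripts (56%), 4346 with a positive and 4613 with a negative difference. For the printed transcripts the log2 difference was 7.56 ± 0.41 (SE; edgeR adjusted p = 3.53e-13) for ENSRNOT00000049667 and 5.9 ± 1.19 (adjusted p = 0.000208) for ENSRNOT00000008302. It was -5.87 ± 0.4 (edgeR adjusted p = 1.37e-11) for ENSRNOT00000003418 and -4.44 ± 0.25 (adjusted p = 6.3e-13) for ENSRNOT00000008416. In each case all 3 TCDD libraries at 24 h lay beyond the controls of that time, by the rule that chose them.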

How the results depend on the processing

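The count of 10701 calls stayed between 7729 and 10721 over 19 alternatives, the time difference between 6781 and 9186 (18 alternatives) and the calls beyond every other compound, 4343, between 3368 and 4396 (18). Leaving out 1 library gave 9938 to 10396 calls, 8418 to 8978 and 3998 to 4333. Membership changed more than these totals. Of the 10701 calls, 7012 kept direction and call with the fragment length covariate, 8599 with limma on log2(TPM + 1) and 5021 in every alternative. Calls under 500 bases, 366, were 186 with the filter at 10 CPM, which leaves fewer transcripts to test, and 201 with the fragment length covariate, which gave 674 of 1122 calls from 500 to under 1000 bases; the cause of those was not tested. The share of rises in the longest class, 19.2%, was 16.4% with that filter, 16.7% on total counts, 8.9% and 8.8% with limma on log2(TPM + 1) and log2(TPM + 0.1), 23.9% with the covariate, 49.5% with TMM within classes by construction, 23.8% for the longest of 5 classes of equal number, and 16.6% to 23.6% without 1 library (23.6% without TCDD replicate 2). The 4 printed transcripts kept direction and call throughout, as their rule requires. The share of rises in the time difference, 48.5%, was 25.4% with limma on log2(TPM + 1), and beyond every other compound 48.5% against 18.8%. Same-numbered libraries did not deviate together (correlations -0.04, -0.02 and -0.07); the replicate block gave 10638 calls and 8833 for the time difference. Scarce transcripts were called less often, 24.6% under 1 TPM against 80.9% over 100 TPM. The part of depth in this was not tested.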

Other observations

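The fall with the largest bound, at least 390-fold, was in a transcript of 1521 bases with no count in any TCDD library at 24 h and 216, 140 and 35.2 TPM in the controls (edgeR adjusted p = 0.0374). At 6 h it had 0, 0 and 129 TPM with TCDD and no count in either control, and at 24 h with acetaminophen 0.817, 0.384 and 61 TPM. Trichloroethylene libraries had 113, 149 and 28.8 TPM at 6 h and at most 0.0377 TPM at 24 h. Gentamicin libraries had 0, 0 and 43.4 TPM at 6 h and at most 1.38e-06 TPM at 24 h. The transcript was singled out after its values were seen. Of the 26 rises beyond 8-fold with no count in control, 26 had no count in at least 1 of the 23 libraries outside the comparison, as had 13 of the 14 falls with no count in TCDD. Of all 333 rises and 228 falls beyond 8-fold, 190 and 59 had such a library.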
